A study of Homo sapiens with 36 samples.

Results

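The early response of JEKO cells to GS716054 was read from 6 RNA sequencing libraries out of the 36 of the series. They were all the libraries labelled with the line JEKO and the 24 h time point, 3 treated with GS716054 and 3 with DMSO, numbered as biological replicates 1 to 3. JEKO is an established human mantle cell lymphoma line. In the study's design text, GS716054 is the KDM5 inhibitor, KDM5 standing for lysine demethylase 5, and DMSO is the solvent that served as control. Both groups grew in RPMI-1640 medium with 20% fetal bovine serum. The dose is not given in the sources used here. JEKO libraries at 72 h and libraries of the mantle cell lymphoma lines MINO and UPN-1 at 24 h, also 3 per group, were used only to set the JEKO response at 24 h beside them. A single line stands for the disease here, and the labels call the replicates biological without saying how they were grown apart.

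KDM5 enzymes take methyl groups off a lysine in the tail of histone H3 (the H3K4 mark), which lies at the start sites of active genes in its trimethylated form. Blocking them is known to raise this mark, and KDM5A and KDM5B are best known as repressors of transcription. Mantle cell lymphoma is a B-cell tumour that carries a translocation placing the cyclin D1 gene, CCND1, beside the immunoglobulin heavy chain locus, so that CCND1 is transcribed at a high level in a cell type that normally lacks it.

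The DMSO libraries held 10517251, 12702090 and 11726278 reads in genes, and the GS716054 libraries held 9290770, 12679598 and 11565854. All 10 markers of mantle cell lymphoma B cells, among them MS4A1, PAX5, SOX11 and CCND1, passed the filter on low counts. Of 10 markers of T and NK cells, 4 passed it (CD3D, CD3G, TRAC and CD8A), with a summed level of 50.9 to 54.4 CPM (the count scaled to the library's total after TMM adjustment) in DMSO and 41.3 to 59.0 in GS716054, and CD2 and KLRD1 had 0 counts in all 6 libraries. Of 6 monocyte markers, only CD68 passed, at 0.639 to 1.71 CPM in DMSO and 1.46 to 2.36 in GS716054, with FCGR3A and S100A8 at 0 counts. Of 18 stromal, endothelial, epithelial and erythroid markers, 5 passed, with a summed level of 28.3 to 29.5 CPM in DMSO and 28.4 to 30.9 in GS716054. COL1A2, COL3A1, DCN, CDH5, KRT19, CDH1, HBA1 and HBB were at 0 counts.

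The second GS716054 library stood apart from the other 5, and the main results are given with its values or without it. Its log2 CPM correlated with the other libraries at 0.976 to 0.978, against 0.981 to 0.987 among those. It held the lowest or the highest value of the 6 libraries in 8501 of 16690 genes tested (50.9%), where each other library did so in 26.7% to 33.5%. Genes of cytosolic ribosomal proteins took 5.036% of its gene reads, against 9.493% and 8.661% in the other GS716054 libraries and 7.961% to 9.369% in DMSO. Mitochondrially encoded genes took 2.73% in it, 3.168% to 3.471% in the other treated libraries and 3.259% to 4.222% in DMSO. When libraries were weighted by their fit to the model in limma, it received a weight of 0.451, against 1.11 to 2.69 for the other 5.

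Few genes passed the test at 24 h. Of 16690 genes tested, 3 were called by edgeR's quasi-likelihood test at a Benjamini-Hochberg adjusted p under 0.05 (0.018%), 0 higher and 3 lower in GS716054. Without the adjustment, 392 genes were higher (2.35%) and 270 lower (1.62%) at p under 0.05. Together these were 662 genes (3.97%), a smaller share than the 0.05 that this threshold allows where no gene differs. The groups did not overlap in 1098 genes that were higher (6.58%) and 1019 that were lower (6.11%) in GS716054. Without the second GS716054 library, 0 genes passed the adjusted threshold and 535 had an unadjusted p under 0.05. DESeq2 called 25 genes on the same libraries, 10 higher (0.065%) and 15 lower (0.0974%), and limma voom with library weights called 42, 21 in each direction (0.126%).

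**Figure D1:**
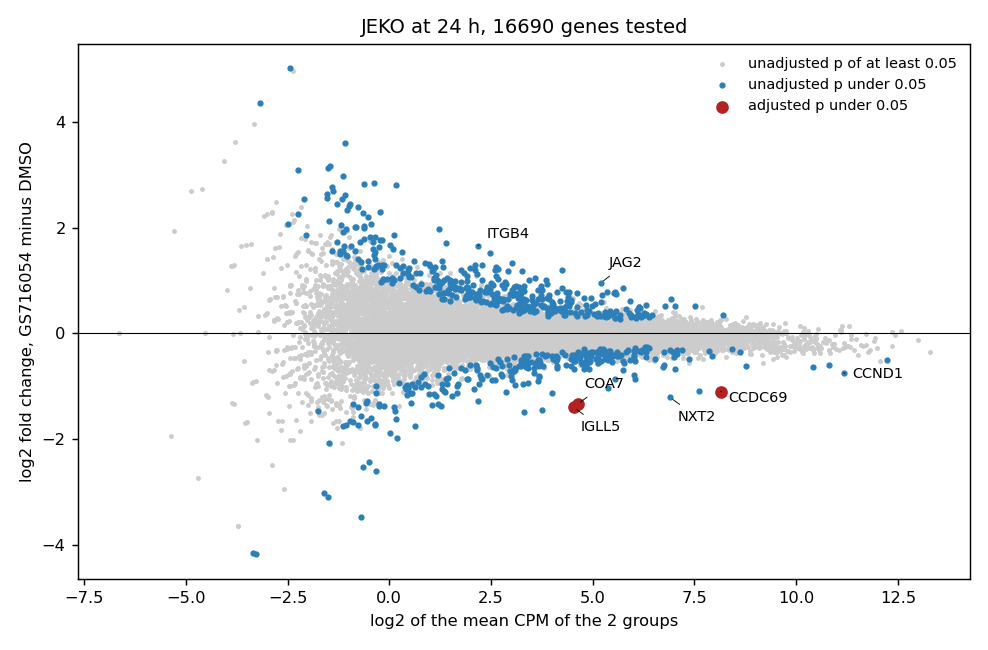
Fold change against level for every gene tested in JEKO at 24 h. The horizontal axis is the log2 of the mean CPM of both groups and the vertical axis the log2 fold change of GS716054 over DMSO, each point is a gene, and the 3 called genes (IGLL5, CCDC69 and COA7) lie below 0.

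The immunoglobulin lambda-like gene IGLL5 had the smallest p of the comparison. IGLL5 (ENSG00000254709, chromosome 22, 22887780 to 22896111, plus strand, GRCh38) lies in the lambda light chain locus and codes for an immunoglobulin lambda-like polypeptide. Its level was 29.4, 34.2 and 37.4 CPM in the DMSO libraries and 14.5, 12.7 and 11.2 CPM in the GS716054 libraries, and every treated library lay below every DMSO library. The mean fell from 33.7 ± 4.07 to 12.8 ± 1.66 CPM (SD, n = 3). This is -1.40 on the log2 scale, with an SE of 0.174 and an edgeR adjusted p = 0.0185. In the annotation, 43.5% of its exonic bases are also exons of IGLC1 on the same strand, and reads there could have been divided between both genes or set aside as ambiguous. IGLC1 itself did not pass the filter on low counts.

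CCDC69 (ENSG00000198624, chromosome 5, 151181052 to 151224093, minus strand) codes for a coiled-coil protein that acts at the spindle midzone. It was at 363.3, 409.8 and 379.9 CPM in DMSO and at 194.6, 185.4 and 158.8 CPM in GS716054, again with no overlap. The mean fell from 384.3 ± 23.6 to 179.6 ± 18.6 CPM (SD, n = 3), or by 1.10 ± 0.16 (SE) on the log2 scale, at an edgeR adjusted p = 0.0421.

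COA7 (ENSG00000162377, chromosome 1, 52684449 to 52698347, minus strand) codes for a factor of the mitochondrial intermembrane space that helps assemble respiratory complexes, cytochrome c oxidase among them. Its values were 32.2, 34.4 and 39.9 CPM in DMSO and 15.3, 12.8 and 14 CPM in GS716054. The mean fell from 35.5 ± 3.95 to 14 ± 1.25 CPM (SD, n = 3), or by 1.34 ± 0.197 (SE) on the log2 scale, at an edgeR adjusted p = 0.0421. The second GS716054 library was the lowest of the 6 for COA7, by a small margin, and lay between the other treated libraries for IGLL5 and CCDC69.

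With 1 library left out at a time, the log2 fold change of IGLL5 ran from -1.50 to -1.31 and its edgeR adjusted p from 0.0443, without DMSO replicate 1, to 0.241. The log2 fold change of CCDC69 ran from -1.16 to -1.02 and that of COA7 from -1.41 to -1.25, with adjusted p values of 0.171 to 0.308 and 0.171 to 0.316. CCDC69 and COA7 were no longer called with any 1 of the 6 libraries absent, and IGLL5 stayed called only without DMSO replicate 1.

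**Figure D2:**
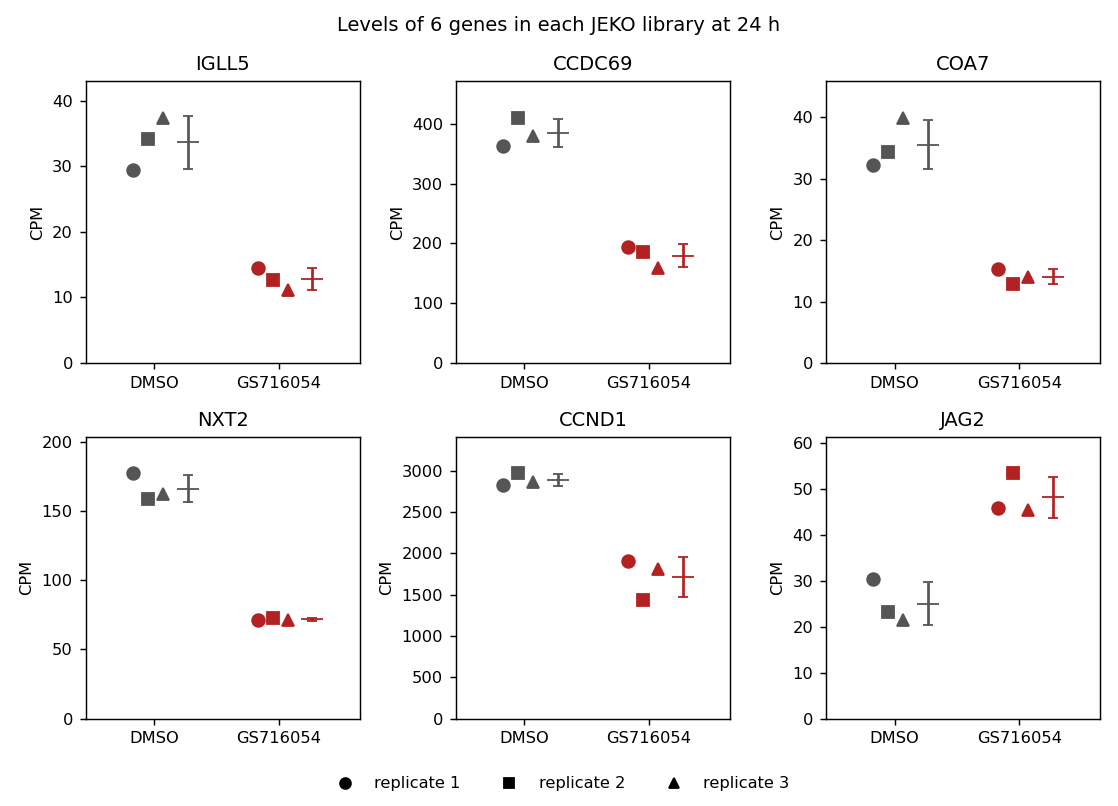
Level of 6 genes in each JEKO library at 24 h, in CPM on a linear axis from 0, by group. Symbols stand for replicates 1 to 3 and the bars beside them give the mean and SD (n = 3); IGLL5, CCDC69, COA7, NXT2 and CCND1 were lower and JAG2 higher in all 3 GS716054 libraries than in any DMSO library.

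The promoters of CCDC69, COA7 and JAG2 are shown as examples from the genes described here, the first 2 for called genes and the third for the Notch ligand with the smallest p. They are RefSeq sequences on GRCh38.p14, on the minus strand, read 5′ to 3′ from 250 bases before to 50 bases after the annotated start. Capitals mark CCGCCC, the motif that the DNA-binding ARID domain of KDM5A is known to prefer, or its reverse complement GGGCGG, which is also the core of the GC box bound by SP1.
CCDC69, chr5:151224043-151224342: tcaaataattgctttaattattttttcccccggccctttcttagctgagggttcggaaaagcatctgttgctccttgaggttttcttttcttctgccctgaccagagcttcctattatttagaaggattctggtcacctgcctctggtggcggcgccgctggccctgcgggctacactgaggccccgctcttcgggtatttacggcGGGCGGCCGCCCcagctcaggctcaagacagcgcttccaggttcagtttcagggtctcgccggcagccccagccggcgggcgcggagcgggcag
COA7, chr1:52698298-52698597: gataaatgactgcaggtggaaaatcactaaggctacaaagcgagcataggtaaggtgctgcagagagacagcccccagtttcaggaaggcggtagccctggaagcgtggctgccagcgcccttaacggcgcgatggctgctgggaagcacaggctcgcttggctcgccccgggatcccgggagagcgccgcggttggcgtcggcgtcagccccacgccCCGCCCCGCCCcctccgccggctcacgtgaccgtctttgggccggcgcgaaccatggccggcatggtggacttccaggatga
JAG2, chr14:105168727-105169026: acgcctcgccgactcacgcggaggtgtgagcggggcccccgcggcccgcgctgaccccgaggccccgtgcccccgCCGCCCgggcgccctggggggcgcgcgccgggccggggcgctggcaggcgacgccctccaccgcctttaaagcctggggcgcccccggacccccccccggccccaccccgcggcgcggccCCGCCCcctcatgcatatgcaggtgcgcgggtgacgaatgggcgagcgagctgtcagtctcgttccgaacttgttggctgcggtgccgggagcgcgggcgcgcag
The 2 matches of COA7 share a base and print as 1 run, and in CCDC69 the motif and its reverse complement abut. Of the 10 lower genes described here, 7 were found in the RefSeq table by symbol, with 9 promoters, of which 5 held the motif on either strand (55.6%). Of the 10 higher genes, 6 were found, with 6 promoters, and 5 held it (83.3%). The motif was present in 64.9% of the promoters of all genes tested and in 45% of all 35116 promoters of the table. These are matches of letters and no measure of KDM5A binding, which was not assayed.

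Below the 3 called genes, 7 further genes were lower in all treated libraries, taken as those with the smallest p among genes whose groups did not overlap. None of them passed the adjusted threshold of edgeR in the fit of the 12 JEKO libraries, while all 7 did so in DESeq2 and in limma voom. In edgeR's fit of all 36 libraries, NXT2 (adjusted p = 0.000273), DNAJC15 (0.0032), CEP41 (0.00407) and PRELID3B (0.0255) passed. NXT2, a cofactor of messenger RNA export from the nucleus, was at 177.4, 158.9 and 162.3 CPM in DMSO and at 71.4, 72.7 and 71.2 CPM in GS716054 (log2 difference -1.21, SE 0.2, edgeR adjusted p = 0.0883). Its treated libraries lay close together, the second included. CLDN23, a claudin of cell junctions, was at 88.7, 77.0 and 87.8 CPM in DMSO and at 52.5, 39.4 and 46.7 CPM in GS716054 (log2 difference -0.87, edgeR adjusted p = 0.0844). PRELID3B, of the PRELI family of phospholipid transfer proteins, was at 154.5, 166.7 and 156.3 CPM against 94.3, 104.4 and 102.2 CPM (-0.67, edgeR adjusted p = 0.105). In the annotation, 14.1% of its exonic bases overlap a gene on the opposite strand, and the strand setting of the counting is not given in the sources used here. DNAJC15, a co-chaperone of the mitochondrial inner membrane, was at 58.1, 64.1 and 59.9 CPM against 35.1, 24.9 and 39.8 CPM (-0.87, edgeR adjusted p = 0.202), with the second treated library the lowest. CEP41, a centrosomal protein, was at 23.2, 21.4 and 21.2 CPM against 10.1, 10.4 and 9.53 CPM (-1.13, edgeR adjusted p = 0.26). CCDC195 was at 7.56, 10.4 and 11.7 CPM against 4.95, 4.39 and 4.44 CPM (-1.11, edgeR adjusted p = 0.252), and IGHG4 is given with the immunoglobulin genes.

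The 10 genes that were higher by the same rule had log2 fold changes of 0.78 to 1.66 and edgeR adjusted p values of 0.202 to 0.426, so none was called. DESeq2 called 8 of them and limma voom 7. ITGB4, the integrin beta 4 chain of hemidesmosomes, was at 2.59, 1.11 and 2.83 CPM in DMSO and at 7.54, 7.61 and 5.46 CPM in GS716054 (log2 difference 1.66, SE 0.308, edgeR adjusted p = 0.202). CYP27B1, the enzyme that makes the active form of vitamin D, was at 15.4, 15.4 and 14 CPM against 22.5, 28.5 and 26.2 CPM (0.79, edgeR adjusted p = 0.208). LINC00426, a long noncoding RNA, was at 35.5, 42.4 and 36.9 CPM against 70.1, 68.1 and 68.4 CPM (0.85, edgeR adjusted p = 0.208). The treated libraries of LINC00426 lay close together and far above DMSO. NAT8L, which makes N-acetylaspartate, was at 10.1, 9.99 and 8.95 CPM against 19.5, 20.6 and 17.8 CPM (1.00, edgeR adjusted p = 0.256). VGF, a precursor of secreted neuropeptides, was at 3.98, 1.96 and 2.47 CPM against 7.65, 7.02 and 5.92 CPM (1.30, edgeR adjusted p = 0.394). ADGRB2, an adhesion receptor, was at 18, 15.4 and 13.4 CPM against 30.6, 29.0 and 20.7 CPM (0.78, edgeR adjusted p = 0.356). LINGO3, a leucine-rich repeat membrane protein, was at 5.97, 8.03 and 5.94 CPM against 11.5, 14.5 and 9.72 CPM (0.84, edgeR adjusted p = 0.426). The noncoding gene ENSG00000261218 was at 2.39, 2.31 and 2.37 CPM against 4.95, 6.14 and 5.55 CPM (1.24, edgeR adjusted p = 0.262). JAG2 and DLL4 complete the 10 and are described with the Notch genes. Without the second GS716054 library, the log2 fold changes were -1.39 to -0.70 in the lower and 0.67 to 1.58 in the higher genes, where the choice of genes whose groups did not overlap fixes the sign.

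The targets of the inhibitor were measured in both groups and none was called. KDM5A was at 126.7, 115.0 and 123.2 CPM in DMSO and at 125.1, 146.7 and 121.6 CPM in GS716054 (log2 difference 0.11, SE 0.164), and KDM5C at 162.8, 168.5 and 189.8 CPM against 187.5, 203.3 and 167.3 CPM (0.10, SE 0.157). The groups overlapped in both genes. KDM5B was at 15.7, 19.4 and 13.9 CPM in DMSO and at 30.3, 30.6 and 19.5 CPM in GS716054, where the third treated library lay barely above the highest DMSO library. Its log2 fold change was 0.71 with an SE of 0.367 (edgeR adjusted p = 1.0). KDM5D had a count of 0 in all 6 libraries, which allows up to 0.219 to 0.337 CPM on the same scale, for counting error only. Of 17 genes of the H3K4 methylation machinery, 0 were called by edgeR, 0 had an unadjusted p under 0.05 and the median log2 fold change was -0.04. The 13 other histone demethylases also had 0 genes at either threshold, with a median of 0.07, which was -0.05 without the second GS716054 library. Their mean was 0.04, 0.28 and -0.10 in the treated libraries, so the second was the highest of the group.

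CCND1, the cyclin D1 gene that is deregulated in this lymphoma, was lower in every treated library but was not called by edgeR. It was at 2822.7, 2968.8 and 2869.0 CPM in DMSO and at 1902.8, 1438.0 and 1807.2 CPM in GS716054, with the second treated library the lowest. The means were 2886.8 ± 74.7 and 1716.0 ± 245.5 CPM (SD, n = 3). The log2 fold change was -0.75 and its SE 0.204, at an edgeR adjusted p of 0.651. DESeq2 called it at an adjusted p of 0.0163 and limma voom at 0.0373, and without the second GS716054 library the log2 fold change was -0.64. In the annotation, 10.4% of its exonic bases overlap LTO1 on the opposite strand. Of the 17 genes tested from a list of 18 G1 cyclins, cyclin-dependent kinases and their inhibitors, CCND1 was the only one with an unadjusted p under 0.05. Over all genes, 1.62% were lower and 2.35% higher at that threshold. The list's median was 0.03. CDKN1A, an inhibitor of cyclin-dependent kinases, was at 36.4, 31.3 and 33.1 CPM in DMSO and at 49.6, 37.5 and 50.5 CPM in GS716054 (0.45, edgeR adjusted p = 1.0).

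The other genes followed whatever they showed had smaller differences. MYC was at 534.0, 594.2 and 549.4 CPM in DMSO and at 571.0, 611.9 and 522.4 CPM in GS716054 (log2 difference 0.02, SE 0.155). The groups overlapped, and the sign of this value turned with limma voom and without some single libraries. The survival factors MCL1 and BCL2 differed by 0.23 (SE 0.138) and -0.16 (SE 0.151), the kinase BTK by -0.07 (SE 0.12) and the transcription factor SOX11 by 0.28 (SE 0.209), each with an edgeR adjusted p of 1.0. Without the second GS716054 library SOX11 differed by 0.11. In the list of 14 BCL2 family genes tested of 17, 2 were higher and 1 lower at an unadjusted p under 0.05 (2.35% and 1.62% of all genes were), and the median was -0.03. Without the second GS716054 library, 1 was higher and 0 lower. In the list of MYC, MAX and MXD proteins, with 11 genes tested of 12, 2 were higher at that threshold, and 1 without the second GS716054 library. The first was MXD4, a MAX partner that represses MYC targets, at 32.9, 26.3 and 30.5 CPM in DMSO and 58.5, 43.9 and 51.4 CPM in GS716054 (0.78, SE 0.184, edgeR adjusted p = 0.486). The other was MGA, a large MAX partner, at 0.34 (edgeR adjusted p = 1.0).

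Immunoglobulin genes made up the list with the lowest median. B cells transcribe rearranged heavy and light chain genes, and class switching places the IGHG, IGHE or IGHA constant genes after the variable region. Of 19 genes (constant genes, IGLL5, the joining chain and surrogate light chain genes), 17 were tested and 1, IGLL5, was called. A further 8 of those tested, besides IGLL5, were lower at an unadjusted p under 0.05 and 1, IGHA2, was higher, so 9 of 17 were lower where 1.62% of all genes were. The list's median log2 fold change was -0.51, against -0.01 over all genes tested. Without the second GS716054 library, 6 were lower (1.33% of all genes), 1 was higher (1.79%) and the median was -0.41. The mean of the list in the treated libraries was -0.39, -0.80 and -0.48 on the log2 scale relative to DMSO, so the second library was the lowest and the other 2 also lay below the DMSO range of -0.12 to 0.12. In bulk RNA, lower levels in each cell and fewer cells with the transcript cannot be told apart.

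The gamma heavy chain constant genes had the largest differences of the list, together with IGLL5. IGHG4 was at 15.5, 18 and 10.5 CPM in DMSO and at 5.85, 3.51 and 6.48 CPM in GS716054 (log2 difference -1.49, SE 0.293, edgeR adjusted p = 0.224). IGHG2 was at 23.8, 19.3 and 16 CPM against 10.6, 6.29 and 4.9 CPM (-1.45, edgeR adjusted p = 0.589). IGHG3 was at 312.8, 270.8 and 215.4 CPM against 169.5, 105.7 and 99.3 CPM (-1.09, edgeR adjusted p = 0.451), and IGHG1 differed by -1.27 (edgeR adjusted p = 0.969). The IGHG genes are near copies of each other, so reads could have been set aside as not uniquely aligned or divided among them. Their values are uncertain one by one. In the JEKO libraries at 24 h, 3.763% to 4.526% of all reads were listed as not uniquely aligned. IGHE was at 46.3, 61.7 and 59.5 CPM against 23.6, 23.1 and 34.8 CPM (-1.04, edgeR adjusted p = 0.262). In each of these 5 genes the treated libraries lay below all DMSO libraries.

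The chains of the surface receptor were lower by less. The next genes were singled out after their values were seen. IGHM, the mu heavy chain, was at 5368.8, 5478.4 and 6084.9 CPM in DMSO and at 4274.7, 3490.5 and 4126.3 CPM in GS716054 (log2 difference -0.51, edgeR adjusted p = 1.0). IGHD was at 126.0, 118.2 and 144.2 CPM against 94.5, 76.0 and 85.6 CPM (-0.60), and the kappa light chain gene IGKC at 2082.0, 2210.4 and 2204.1 CPM against 1609.8, 1028.3 and 1655.0 CPM (-0.60), both with an edgeR adjusted p of 1.0. The opposite sign appeared in IGHA2, at 7.56, 8.28 and 7.49 CPM in DMSO and 13.7, 14.1 and 20.2 CPM in GS716054 (1.04, edgeR adjusted p = 0.934). Lambda constant genes other than IGLL5 overlapped between the groups, with IGLC2 at 0.02, IGLC3 at -0.12 and IGLC7 at -0.36.

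**Figure D3:**
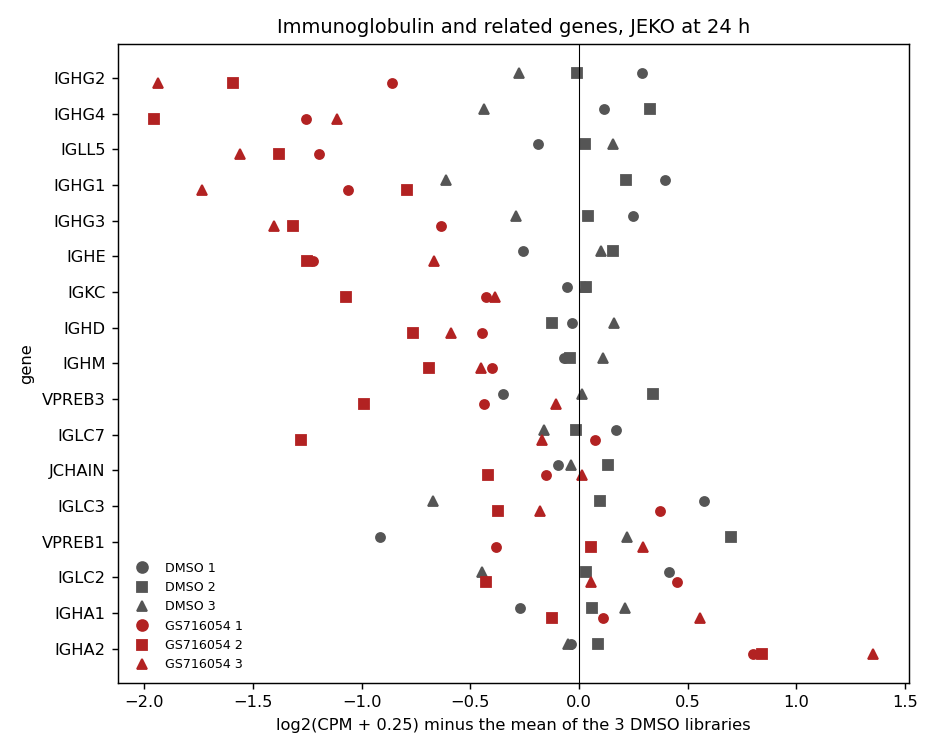
The 17 immunoglobulin and related genes tested, each library drawn as log2(CPM + 0.25) minus the mean of the 3 DMSO libraries. Symbols stand for replicates and colours for DMSO or GS716054; the IGHG genes, IGHE, IGHM, IGHD, IGKC and IGLL5 lie left of their DMSO values in all 3 treated libraries, and IGHA2 lies to the right.

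Other B-cell gene lists stood close to all genes. None of the 25 genes of B-cell receptor signalling was called or had an unadjusted p under 0.05, and the median was 0.03. The same held for the 26 B-cell transcription factors tested of 27, with a median of -0.02. Among 21 plasma cell and secretory genes, 1 was higher at that threshold, the syndecan gene SDC1, at 1.39, 1.62 and 1.1 CPM in DMSO and 2.02, 2.05 and 3.33 CPM in GS716054 (log2 difference 0.84, edgeR adjusted p = 1.0). The 16 surface targets of therapy had a median of -0.01. At that threshold 1 was lower (1.62% of all genes were), TNFRSF13B (-0.44, edgeR adjusted p = 1.0). The 17 tested homing and chemokine receptors had a median of 0.09, with 2 members higher at an unadjusted p under 0.05 (2.35% of all genes were), CNR2 and ITGB7. Without the second GS716054 library 1 member was. CNR2, the cannabinoid receptor of immune cells, was at 3.28, 1.45 and 2.56 CPM in DMSO and 4.61, 5.63 and 2.59 CPM in GS716054, so its groups overlapped, and its log2 difference moved from 0.83 to 0.56 without that library. The Src family kinase LCK, which is outside these lists, was at 10.7, 12.7 and 11 CPM in DMSO and 26.4, 21.4 and 31.6 CPM in GS716054 (1.20, SE 0.316, edgeR adjusted p = 0.591), and was called by limma voom at an adjusted p of 0.0259. The edgeR test called LCK higher in JEKO at 72 h (1.82, adjusted p = 0.0262). A fit of all 36 libraries also called it in MINO at 24 h (1.44, adjusted p = 0.00174), but not in UPN-1 (0.52). LCK is also transcribed in T cells. The 4 T-cell markers that were tested had a median log2 difference of 0.67, and of 0.95 without the second GS716054 library. The median of this marker list was 1.24 in JEKO at 72 h, and 1.13 in MINO and 0.58 in UPN-1 at 24 h. CD3G was at 1.49, 1.11 and 1.1 CPM in DMSO and 4.39, 1.46 and 0.925 CPM in GS716054 (0.84), CD3D differed by 0.51, CD8A by 0.93 and TRAC by -0.09. The groups overlapped in all 4 markers, none had an unadjusted p under 0.05, and their part in the LCK difference was not tested.

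Notch genes had a positive median, in a list that was written after the values of JAG2 and DLL4 had been seen. In this pathway, ligands of the JAG and DLL families on one cell activate NOTCH receptors on a neighbour, whose released intracellular part joins RBPJ and MAML proteins to switch on targets such as NRARP and the HES genes. Of 24 genes, 21 were tested and 0 were called. At an unadjusted p under 0.05, 5 were higher and 0 lower, where 2.35% and 1.62% of all genes were. The median was 0.24, and 0.27 without the second GS716054 library. The mean of the list was 0.37, 0.33 and 0.35 above DMSO in the 3 treated libraries, against -0.08 to 0.07 within DMSO, so the second library lay beside the others here. Leaving out JAG2 and DLL4, which prompted the list, 3 of 19 genes were higher at that threshold, and the median was 0.23, or 0.16 without the second GS716054 library.

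Among the ligands, JAG2 (ENSG00000184916, chromosome 14, 105140982 to 105168824) was at 30.3, 23.2 and 21.5 CPM in DMSO and at 45.8, 53.4 and 45.5 CPM in GS716054 (log2 difference 0.95, SE 0.199, edgeR adjusted p = 0.262). DLL4 was at 1.29, 1.2 and 1.64 CPM against 4.16, 4.24 and 2.22 CPM (1.36, SE 0.306, edgeR adjusted p = 0.394), and JAG1 at 7.56, 5.64 and 7.76 CPM against 13, 9.07 and 11 CPM (0.66, edgeR adjusted p = 1.0). No treated library overlapped DMSO in these ligands. The receptors NOTCH1, NOTCH2 and NOTCH4 differed by 0.24, -0.04 and 0.23, each with an unadjusted p above 0.05. Of the targets, NRARP, a feedback inhibitor of the pathway, was at 13.7, 19.8 and 18.2 CPM against 21.5, 29.7 and 28.8 CPM (0.63, SE 0.21, edgeR adjusted p = 0.992), and HES6 differed by 0.33 (edgeR adjusted p = 1.0). At 72 h the list's median in JEKO was -0.03.

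Ribosomal and respiratory genes were where the second GS716054 library differed the most. Ribosomal protein genes code for the structural proteins of the cytosolic ribosome, and the nuclear respiratory genes for subunits of the mitochondrial chain that makes ATP. The 46 large-subunit ribosomal protein genes had a mean of 0.05, -1.10 and -0.05 on the log2 scale relative to DMSO in treated libraries 1, 2 and 3, and the 33 small-subunit genes 0.00, -1.04 and -0.04. The second library was the lowest of 6 in 45 of the 46 large-subunit genes, and in 25.7% of all genes. With it, the median log2 fold changes were -0.26 and -0.28, and without it they were 0.03 and 0.02. None of these genes was called or had an unadjusted p under 0.05.

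In the second GS716054 library the respiratory lists behaved alike. In libraries 1, 2 and 3 of the treated group, complex IV subunits had means of 0.01, -1.02 and 0.05, ATP synthase subunits -0.04, -0.82 and 0.05, complex I subunits -0.08, -0.77 and -0.10, and complexes II and III subunits -0.03, -0.61 and 0.09. The second library was the lowest of 6 in all 12 complex IV and all 16 ATP synthase genes. Their medians moved from -0.25 and -0.21 to 0.05 and 0.03 without it, and those of complex I and of complexes II and III from -0.23 and -0.15 to 0.01 and 0.05. The 76 mitochondrial ribosomal protein genes tested had means of -0.11, -0.58 and 0.06 and a median of -0.15 that became 0.01. Complex I assembly factors moved from -0.13 to -0.02. In the 24 complex IV assembly factors tested of 27, the median was -0.10 and 0.03 without that library, and the list holds the called gene COA7. At an unadjusted p under 0.05, 1 complex I, 1 ATP synthase, 2 mitochondrial ribosomal protein and 2 complex IV assembly genes were lower. Over all genes, 1.62% were. Without the second library the counts were 2, 0, 0 and 1, where 1.33% of all genes were lower. In these lists 0 genes were higher at that threshold, with or without it.

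Single genes show the size of the gap. NDUFB7, a complex I subunit, was at 71.8, 85.0 and 82.5 CPM in DMSO and at 82.1, 23.1 and 94.8 CPM in GS716054. The mitochondrially encoded MT-ND3 was at 826.7, 673.3 and 595.4 CPM in DMSO and at 697.4, 148.4 and 569.7 CPM in GS716054. In NDUFB7 the second treated library alone was low. In MT-ND3 it was by far the lowest, and the third treated library also lay below every DMSO library. In the 13 mitochondrially encoded messenger RNAs the other 2 treated libraries were also below 0, at -0.16 and -0.26 against -0.83, with DMSO at -0.14 to 0.08. The median of these RNAs was -0.35 with and -0.19 without the second library. Among the nuclear lists, those 2 libraries were also below 0 in complex I subunits (-0.08 and -0.10) and complex IV assembly factors (-0.07 and -0.05). The medians of these nuclear lists were 0.01 and 0.03 without the second library. All 13 mitochondrially encoded messenger RNAs had a negative fold change, where 8534 of all 16690 genes had one, and none had an unadjusted p under 0.05.

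The deviation also followed the annotated exonic length of genes. Over 5 bins of about equal gene number by that length, which held the 12412 protein-coding genes tested, the second treated library's median log2 CPM relative to DMSO was -0.28 in the shortest bin (207 to 2998 bases), then -0.06, 0.04 and 0.10, and 0.14 in the longest. The other 5 libraries stayed between -0.02 and 0.05 in every bin. The part of length, RNA quality or handling in this was not tested. What the labels give for this library does not set it apart from the others of its group.

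**Figure D4:**
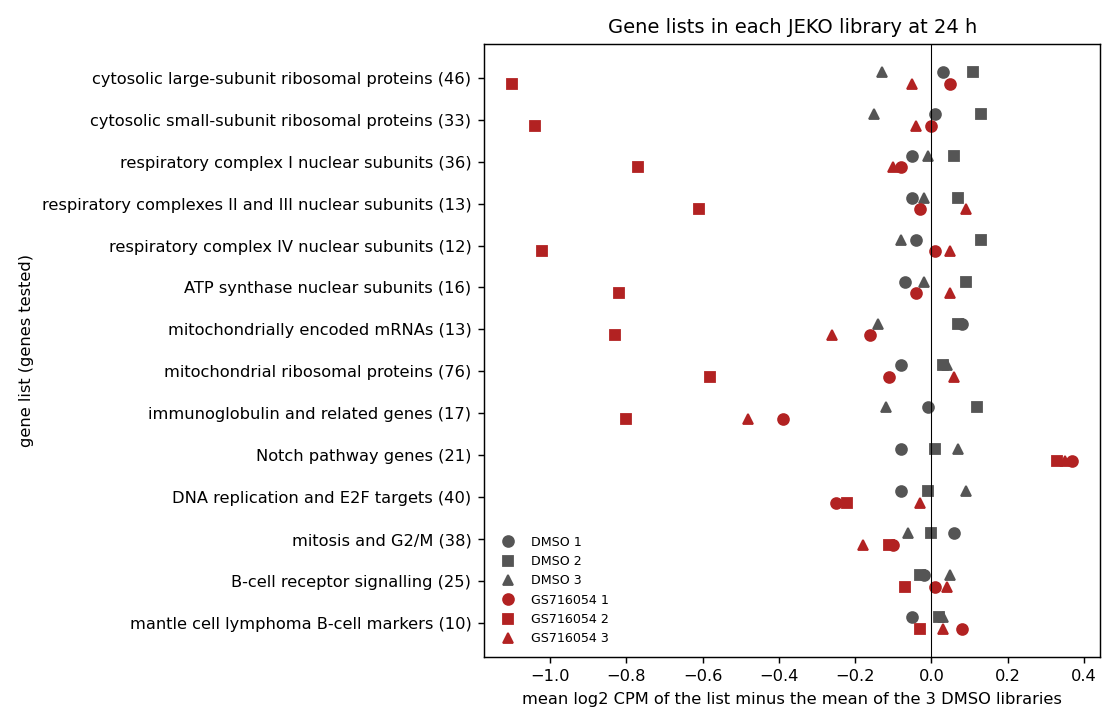
Mean log2 CPM of 14 gene lists in each library relative to the mean of the 3 DMSO libraries, with the number of genes tested in parentheses. The second GS716054 library (red square) lies from -1.10 to -0.58 in the ribosomal and respiratory lists, whereas all 3 treated libraries lie together in the Notch list. All 3 lie below DMSO in the immunoglobulin list, and also in the mitochondrially encoded, complex I and mitosis lists.

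Cell cycle lists were slightly lower in sign without calls. Of 40 DNA replication and E2F target genes, 37 had a negative log2 fold change, where 8534 of all 16690 genes had one. The median was -0.14 (-0.10 without the second GS716054 library) and 0 were called. At an unadjusted p under 0.05, 2 were lower, where 1.62% of all genes were, and 1 without the second GS716054 library. The mean of the list was -0.25, -0.22 and -0.03 in the treated libraries and -0.08 to 0.09 in DMSO, so the third treated library lay within the DMSO range. The 2 with an unadjusted p under 0.05 were POLE2, a subunit of DNA polymerase epsilon, at 19.2, 14.5 and 15.3 CPM in DMSO and 8.55, 8.41 and 10.7 CPM in GS716054 (-0.82, edgeR adjusted p = 0.719), and GINS3, of the replicative helicase, at 31.8, 34.8 and 35.3 CPM against 21.1, 20.0 and 26.7 CPM (-0.59, edgeR adjusted p = 1.0). In both, the groups did not overlap. Of 38 mitosis and G2/M genes, 34 were negative, with a median of -0.08 (-0.12 without the second GS716054 library) and 0 at an unadjusted p under 0.05. The mean of this list was -0.10, -0.11 and -0.18 in the treated libraries and -0.06 to 0.06 in DMSO. The groups did not overlap in 11 of the 38 that were lower and 0 that were higher, where 6.11% and 6.58% of all genes did not. The 33 ribosome biogenesis genes had a median of -0.05.

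Signalling and metabolic lists held 0 genes called by edgeR. Members given below as higher or lower had an unadjusted p under 0.05, where 2.35% of all genes were higher and 1.62% lower. The 22 NF-kappaB targets tested had a median of 0.15, and the 25 AP-1 and EGR factors tested a median of 0.19, both with 0 genes at an unadjusted p under 0.05. A positive log2 fold change was found in 16 and 22 of them, and in 8154 of all 16690 genes. The NF-kappaB means of the treated libraries (0.33, -0.17 and 0.40) overlapped DMSO (-0.31 to 0.35). Those of the AP-1 and EGR list (0.28, 0.13 and 0.27) lay above DMSO (-0.10 to 0.05). Without the second GS716054 library the medians were 0.20 and 0.23, with 1 gene higher in each (1.79% of all genes were) and 0 lower. The 38 interferon response genes tested had a median of -0.34, which was -0.11 without the second GS716054 library and -1.03 at 72 h, and the treated libraries (-0.29, -0.43 and 0.11) overlapped DMSO (-0.17 to 0.30). The 15 class I antigen presentation genes had a median of -0.18 (-0.06 without the second GS716054 library) and 1 lower member, ERAP2 (-0.31). Their mean was -0.02, -0.47 and -0.16 in the treated libraries, against -0.05 to 0.09 in DMSO. Class II genes had a median of -0.04, which was 0.12 without the second GS716054 library, and treated means of 0.11, -0.32 and -0.02. Medians were -0.05 for amino acid and ATF4 genes and 0.04 for glycolysis and hypoxia genes, with 0 genes at an unadjusted p under 0.05 in either. The 30 cholesterol and fatty acid synthesis genes tested had a median of 0.03 and 1 lower member, the mevalonate kinase gene MVK (-0.43). Replication-dependent histones, with 38 tested of 53, had a median of 0.10 and 2 higher members, H2AC13 and H2BC8 (1 without the second GS716054 library). The 8 metallothionein and metal response genes tested of 12 had a median of 0.23 and 1 higher member, the heme oxygenase gene HMOX1. Of 34 germline genes, 4 passed the filter on low counts.

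At 72 h, measured in separate JEKO libraries, the same 20 genes had the same sign. All 10 lower genes were also lower at 72 h, where 63.3% of all genes that were lower at 24 h were, and all 10 higher genes were also higher, where 64.9% of all genes that were higher at 24 h were. Of all genes with an unadjusted p under 0.05 at 24 h, 83.7% of the lower and 87.0% of the higher genes kept the sign. Of the lower genes, 6 were called at 72 h (IGLL5, CCDC69, CLDN23, PRELID3B, IGHG4 and CCDC195), against 0.0959% of all genes called lower there, and of the higher genes 2 (CYP27B1 and VGF), against 0.204%. Of all genes with an unadjusted p under 0.05 at 24 h, 13 of 270 lower and 20 of 392 higher genes were called with the same sign at 72 h. IGLL5 stood at -1.43 (edgeR adjusted p = 0.00184) and CCDC69 at -0.83 (adjusted p = 0.0462), while COA7 stood at -0.50 (adjusted p = 0.463). IGHG4 reached -2.69 and CCDC195 -2.96, and VGF reached 2.40. A test of the difference between the times called 0 of 16690 genes (299 at an unadjusted p under 0.05), with the smallest edgeR adjusted p at 0.938, so a larger or smaller effect at 72 h was not detectable in any of these genes.

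The same 20 genes were read in the other lines in a fit of all 36 libraries. In MINO at 24 h, 7 of the 9 lower genes with reads there and 7 of 10 higher genes had the JEKO sign. Of all genes with reads there, 53.2% of the lower and 61.6% of the higher did, and 57.4% and 70.0% of those with an unadjusted p under 0.05 in JEKO. CCDC69 (-1.34, edgeR adjusted p = 2.06e-05), COA7 (-0.81, adjusted p = 0.0199) and CEP41 (-0.81, adjusted p = 0.0058) were called lower and LINC00426 (1.24, adjusted p = 0.00194) and ADGRB2 (2.21, adjusted p = 0.0365) higher, in a comparison that called 1.64% of all genes lower and 2.59% higher. Among genes with an unadjusted p under 0.05 in JEKO and reads in MINO, 11 of 249 lower and 48 of 360 higher genes were called with the JEKO sign. In UPN-1 at 24 h, 7 of 10 lower and 8 of 10 higher genes had the JEKO sign, against 58.6% and 64.3% of all genes and 77.1% and 75.3% of those with an unadjusted p under 0.05 in JEKO. Of the 20, 1 was called, IGLL5 (-0.90, edgeR adjusted p = 0.0309), where 0.0167% of all genes were called lower. Among lower genes with an unadjusted p under 0.05 in JEKO and reads in UPN-1, 2 of 253 were called lower there. In MINO, IGLL5 had 0 counts in all 6 libraries.

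**Figure D5:**
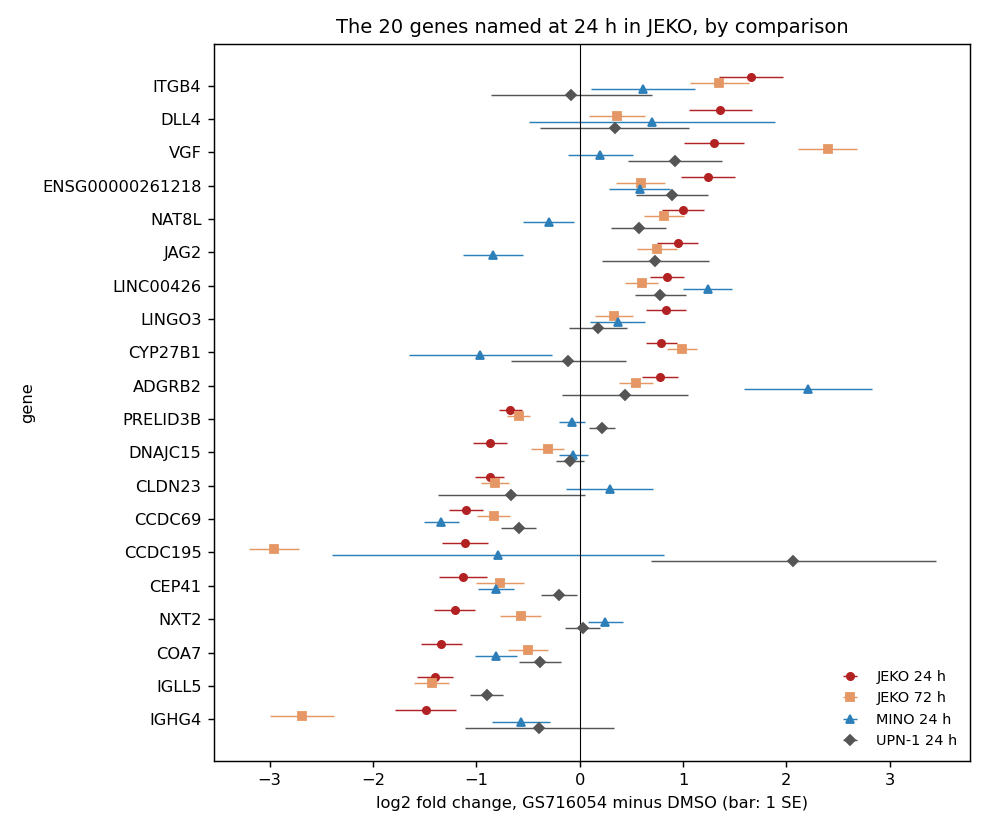
Log2 fold changes of GS716054 over DMSO, with bars of 1 SE, for the 20 genes in JEKO at 24 h and 72 h and in MINO and UPN-1 at 24 h. The JEKO points at both times lie on the same side of 0 for all 20 genes; no point is drawn for IGLL5 in MINO.

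The difference between lines was tested directly. Of 17980 genes, 17 differed between JEKO and MINO at 24 h at an edgeR adjusted p under 0.05 (0.0945%), of which the count was 3 without MINO GS716054 replicate 2, and 0 between JEKO and UPN-1, where 339 had an unadjusted p under 0.05 and the smallest adjusted p was 0.214. Of the 17, 14 were called in MINO and 1 in JEKO. That gene was NXT2, at -1.20 in JEKO and 0.25 in MINO in this fit (difference -1.45, SE 0.234, edgeR adjusted p = 0.00372), with 0.03 in UPN-1. MYC showed the opposite arrangement, with 0.04 in JEKO and -1.52 in MINO, and with -0.06 in UPN-1 (JEKO minus MINO 1.56, SE 0.225, edgeR adjusted p = 0.000905). For JAG2 the JEKO minus MINO difference was 1.80 (SE 0.403, edgeR adjusted p = 0.0636), which did not pass. The 20 genes were picked on the same JEKO values that enter these differences.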

How the data were processed

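RNA of JEKO, MINO and UPN-1 cells was prepared with a Qiagen kit, per the labels' protocols. Per the submitters' processing notes, HISAT2 2.2.1, HTSeq 0.13.5 and GRCh38 were used, and the strand setting and annotation release are not given in the sources used here. The authors deposited whole-number read counts per gene for each library, with no normalization. At 24 h in JEKO, 43.29% to 44.68% of reads were in no feature, 43.48% to 44.38% in genes and 1.979% to 2.529% ambiguous, and these summary lines stayed out of all tests. Names and positions came from GENCODE v44 (GRCh38), where 57532 of 58302 gene IDs matched.

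Counts were filtered with filterByExpr (minimum count 10, minimum total 15), scaled by TMM and tested with edgeR 4.0.16 in R 4.3.3 on the 12 JEKO libraries (8 residual degrees of freedom), or on all 36 for differences between lines, with Benjamini-Hochberg adjustment over all genes and a threshold of 0.05. The SE is the absolute log2 fold change over the square root of F. CPM are on TMM-scaled totals, and log2 CPM of lists used a prior count of 2. Depth limits each CPM: a count of 0 allows 3 reads, 0.219 to 0.337 CPM on these totals. Alternatives were DESeq2 1.42.0, limma 3.58.1 voom with sample weights, other filters, scalings and libraries, a replicate block, and each library left out. The scripts were tested on simulated data.

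Genes are named if called, if among the 10 with the smallest p in each direction where groups did not overlap and the mean log2 CPM reached 1, if on a fixed list (the KDM5 genes, CCND1, SOX11, MYC, BCL2, MCL1, BTK and CDKN1A), if called by another tool, if among the largest of their list, or if they set the second treated library apart. The comparison, the 40 gene lists and this rule were chosen with earlier results of these data known, and the Notch list, as well as any gene outside the rule, after the values were seen. Lists were given no set test.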

Additional observations from a re-analysis of the deposited data

Results flagged for a closer look

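Between JEKO and MINO, the effect of GS716054 at 24 h differed in 17 genes by edgeR's test of the difference itself, and each is given as the JEKO log2 fold change minus that of MINO. The difference was positive in 10 genes. These were MYC (1.56), the polyol enzyme SORD (1.28), the folate carrier SLC19A1 (1.26), the pseudouridine synthase PUS7 (1.59), RASL10B (1.31), the lipoprotein receptor SCARB1 (1.13), DDN (1.77), ENSG00000259352 (1.28), the proline synthesis enzyme PYCR1 (1.08) and the amino acid transporter SLC38A5 (1.31). In JEKO, these 10 had log2 fold changes of -0.16 (PYCR1) to 0.26 (SCARB1), none called, and in MINO all were called lower, from -1.52 (MYC and DDN) to -0.87 (SCARB1).

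The difference was negative in 7 genes, which were NXT2 (-1.45), ENSG00000237513 (-2.22), the antiproliferative gene BTG2 (-1.49), the adaptor SCIMP (-2.53), SH3BP5-AS1 (-1.26), TRIP4 (-1.06) and ATP8A2 (-6.05). BTG2, SCIMP, SH3BP5-AS1 and ENSG00000237513 were called higher in MINO (1.55, 2.29, 1.20 and 1.48). In JEKO they stood at 0.06, -0.24, -0.06 and -0.74, with edgeR adjusted p values of 0.98 to 1.0. ENSG00000237513 had counts of 168, 159 and 151 in DMSO and of 90, 100 and 95 in GS716054 in JEKO. TRIP4 was called in neither line, at -0.57 in JEKO (edgeR adjusted p = 0.361) and 0.49 in MINO (adjusted p = 0.0748). NXT2 alone was called in JEKO. ATP8A2 had counts of 2, 4 and 9 in DMSO and 0 in all 3 GS716054 libraries of JEKO, so its fitted value is no measure of size. SCIMP had at most 11 counts in any of the 6 JEKO libraries. Without the second GS716054 library of JEKO, 12 genes were called for this difference, all 12 among the 17, and without MINO GS716054 replicate 2 the count was 3.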

How the results depend on the processing

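The count of 3 genes called at 24 h was 3 with DESeq2 size factors in edgeR and 2 with a minimum count of 50. It was 44 (31 higher, 13 lower) with no low-count filter, 7 (2 higher, 5 lower) with only the 6 libraries compared, 11 (1 higher, 10 lower) with all 36 libraries, 25 with DESeq2, and 42 with limma voom and sample weights. All 3 genes were among the calls of each of these 5 fits. Leaving out 1 library gave 0 to 1 calls. Same-numbered libraries of the groups correlated in their deviations at 0.13, 0.06 and 0.21, so the numbers were not taken to pair them, although each library correlated best with its own number. With the replicate number as a block, 8 genes were called (1 higher, 7 lower) on 12 libraries, namely IGLL5, CCDC69, COA7, NXT2, CLDN23, IGHG2, IGHG3 and, higher, JAG2, and 8 (0 higher, 8 lower) on 6.

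The difference between 72 h and 24 h stayed at 0 calls, with the block and without each library in turn too, except for 20 with no low-count filter. The JEKO minus UPN-1 difference stayed at 0 likewise, with 3 where no filter was used. The JEKO minus MINO difference had 17 calls, 201 with no filter, 197 with the replicate block within each line, and 3 to 20 with 1 library left out, the fewest without MINO GS716054 replicate 2.

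Of the 63 genes of the 24 h comparison followed over these alternatives, 58 kept their sign in all. With limma voom, MYC was -0.01 and IGLC3 0.00. With 1 library left out, MYC ran from -0.03 to 0.08, IGLC2 from -0.21 to 0.26, IGLC3 from -0.39 to 0.21, NOTCH2 from -0.12 to 0.05 and NDUFB7 from -0.61 to 0.15, the last value without GS716054 replicate 2. The cause was not tested. With 9290770 to 12702090 gene reads per library, genes of a few CPM rest on few reads, and SEs of 0.114 (PRELID3B) and more leave small changes undetected.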
